A study of Mus musculus with 20 samples.

Results

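Gene expression in the proximal colon (PC) was compared between mice fed 5% resistant potato starch (RPS) and mice fed none, to find which genes and gene groups this level of starch altered beyond the few with the largest folds. The 10 libraries, 5 at 5% RPS and 5 at 0% RPS, were chosen by the diet in their labels and are part of a set of 20 that also holds 5 libraries each at 2% and 10% RPS. All mice were C57BL/6, an inbred laboratory strain, and had been placed after weaning at 3 weeks of age or later on the Total Western Diet (TWD), a diet for rodents that copies the nutrient profile of American diets. After 6 weeks on the TWD they received the TWD alone (0% RPS) or the TWD with RPS added for 3 more weeks, and a piece of the PC wall just beyond the cecum was used for RNA. Neither the labels nor the methods state in words that each library is a separate mouse, so p-values measure the spread between libraries. The labels give no genetic alteration and no sex.

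Resistant starch passes the small intestine undigested, and gut bacteria further down ferment it to short-chain fatty acids. The colon wall meets these bacteria with a layer of mucus, with antimicrobial proteins and reactive oxygen made by its epithelium, and with the immune cells beneath it. A tissue segment holds all of these cells together with smooth muscle, connective tissue, nerves, and vessels, so fewer cells of a type and less RNA per cell cannot be told apart in the values below.

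The 10 libraries held 24160095 to 35083751 counts, at which 3 counts stand for 0.0855 to 0.124 CPM. Normalised counts, used below for levels, are counts divided by a size factor for each library and are not scaled for gene length, so levels are compared between libraries and not between genes. In a principal component analysis of these libraries, the first component (33.5% of the variance) set replicate 2 of 0% RPS apart at 30.9 while the others scored -8.03 to -0.38. On the second (25.3%) every 5% RPS library scored 0.51 or more and every 0% RPS library -1.33 or less. The mean distance of 0% RPS replicate 2 to the other libraries of its diet was 38.5, against 24.9 to 27.4 for the other 0% RPS libraries and 19.0 to 23.3 at 5% RPS. That library also held the highest summed markers of smooth muscle, fibroblasts, endothelium, macrophages, adipocytes, and plasma cells, and calls that were lost without it are given with both values.

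A gene was called changed where its DESeq2 adjusted p was at most 0.05 and its fold change at least 1.5. Of 12561 genes with an adjusted p, 42 rose (0.334%) and 13 fell (0.103%) at 5% RPS. Rising genes had a median log2 fold change of 1.02 and falling genes one of -0.74, against -0.01 over all genes tested, and 21 of the rises but 3 of the falls exceeded 1 in size. In 17 of the 42 rising genes all 5 libraries at 5% RPS stood above the highest 0% RPS library, a pattern shown by 1.46% of all genes tested, and in 6 of the 13 falling genes all 5 stood below the lowest, shown by 0.955%. The called genes were chosen by p and fold in these same libraries, which favours such a separation. edgeR's quasi-likelihood test called 7 genes (0.0566% of those it tested), all rising and all among the 42: Mal, Gm33424, Akr1b7, Lpo, 2210009P08Rik, Art2a, and Muc13. At an unadjusted p under 0.05 there were 2087 genes with DESeq2 and 1962 with edgeR. Of all genes tested 47.4% had a fold change above 0. The count of called genes moved with single libraries, to 104 without 0% RPS replicate 2, 94 without 0% RPS replicate 3, 24 without 0% RPS replicate 4 or replicate 5, and 34, 25, and 25 without replicates 1, 2, and 3 of 5% RPS. In the 10 fits that each left out 1 of these libraries, 13 of the rising and 2 of the falling genes were called every time. A fit that gave a gene no adjusted p was counted as not called, as for Reg3a without 5% RPS replicate 4 (log2 fold change 2.34). Adjusted p values below are from DESeq2 unless edgeR is named.

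**Figure D1:**
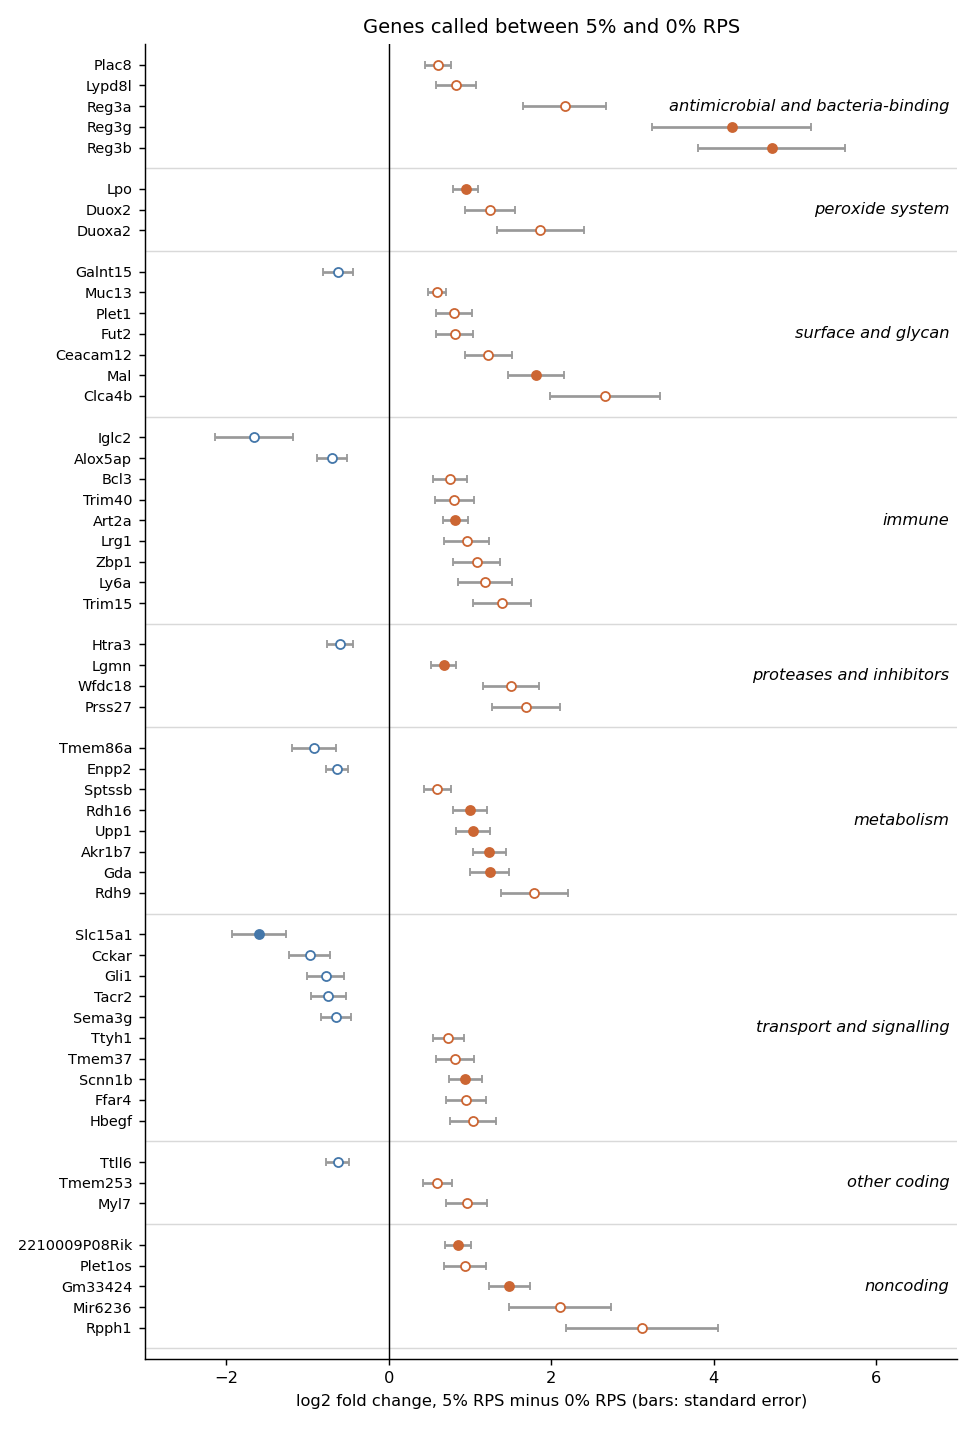
Log2 fold change at 5% RPS against 0% RPS (x axis) of the called genes described here, grouped by what they are known to do; points are DESeq2 estimates, bars their standard errors, and filled points are genes called in all 10 fits that left out 1 library. The Reg3 genes reach 4.71, and the lowest point, Iglc2, stands at -1.66.

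The 2 largest rises, of Reg3b and Reg3g, were among 5 called genes on a list of antimicrobial proteins. Reg3b, Reg3g, and Reg3a encode secreted C-type lectins of the epithelium, and Lypd8l is related to a protein that binds bacteria at the colon surface. Plac8 encodes a small cysteine-rich protein that takes part in the killing of bacteria taken up by cells. Reg3b held 2114, 553, 8324, 2261, and 1095 normalised counts in replicates 1 to 5 of 0% RPS and 113614, 114161, 120543, 8941, and 19347 in those of 5% RPS (log2 fold change 4.71 ± 0.90 SE, adjusted p = 0.000264). The groups did not overlap, but replicate 4 of 5% RPS stood close to the highest 0% RPS library. Reg3g held 316, 239, 2362, 308, and 128 at 0% RPS and 18701, 19545, 21349, 1425, and 1490 at 5% RPS (4.22 ± 0.98, adjusted p = 0.00481). For Reg3g replicates 4 and 5 of 5% RPS lay below 0% RPS replicate 3, so the groups overlapped, and with edgeR the adjusted p was 0.0645 for Reg3b and 0.106 for Reg3g. Reg3a held 1.04 to 22.8 normalised counts at 0% RPS and 36.7 to 122 at 5% RPS (log2 fold change 2.17), and replicates 4 and 5 were again the lowest of the 5% RPS libraries. Lypd8l rose by 0.83 (from 897 ± 272 to 1590 ± 435 SD, n = 5 each) and Plac8 by 0.61 (12316 to 17704 normalised counts at 0% RPS and 16360 to 27028 at 5% RPS) on the log2 scale. They were called in 3 and 5 of the 10 fits, and Reg3a in 7.

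The 3 Reg3 genes lie within 1 cluster on chromosome 6 of GRCm39, Reg3b at 78347640 to 78350455, Reg3a at 78357692 to 78360810, and Reg3g at 78443246 to 78445859, the last on the opposite strand. Their promoter windows are shown because Reg3b and Reg3g had the 2 largest rises and Reg3a is their neighbour: each holds 250 bases before and 50 bases from the start of the canonical GENCODE transcript, read from GRCm39 on the gene's own strand at chr6:78347594-78347893 (Reg3b, plus), chr6:78357442-78357741 (Reg3a, plus), and chr6:78445807-78446106 (Reg3g, minus). Capitals mark matches to the STAT motif TTCNNNGAA, the letters bound by the STAT factors that act downstream of interleukin 22, a cytokine known to induce Reg3 genes.
Reg3b: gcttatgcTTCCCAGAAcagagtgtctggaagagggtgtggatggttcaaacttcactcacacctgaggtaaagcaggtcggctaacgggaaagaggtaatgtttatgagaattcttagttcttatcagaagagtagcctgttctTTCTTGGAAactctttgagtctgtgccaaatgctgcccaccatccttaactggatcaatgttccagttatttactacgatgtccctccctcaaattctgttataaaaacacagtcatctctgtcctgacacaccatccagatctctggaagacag
Reg3a: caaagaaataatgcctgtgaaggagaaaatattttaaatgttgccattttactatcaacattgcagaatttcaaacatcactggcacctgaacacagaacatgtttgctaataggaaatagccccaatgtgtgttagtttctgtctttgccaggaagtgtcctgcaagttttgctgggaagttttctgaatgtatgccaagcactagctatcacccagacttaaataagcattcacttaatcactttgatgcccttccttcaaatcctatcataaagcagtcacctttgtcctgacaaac
Reg3g: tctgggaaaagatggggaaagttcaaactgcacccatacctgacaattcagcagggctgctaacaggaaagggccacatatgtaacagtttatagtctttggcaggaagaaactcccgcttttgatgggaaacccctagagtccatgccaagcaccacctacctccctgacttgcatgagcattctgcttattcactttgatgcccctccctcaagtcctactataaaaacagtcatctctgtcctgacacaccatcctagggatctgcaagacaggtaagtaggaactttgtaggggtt
The Reg3b window held 2 matches and the windows of Reg3a and Reg3g none. The Reg3g window begins with tctgggaa, all but the first letter of a match, and the base before the window was not read. The longest run of bases shared by the windows on the genes' own strands was 29 bases for Reg3b and Reg3g, 14 for Reg3g and Reg3a, and 10 for Reg3b and Reg3a. Among the promoter windows of the genes called in all 10 fits, Scnn1b also held 2 matches and Rdh16 held 1.
Scnn1b (chr7:121463696-121463995, plus): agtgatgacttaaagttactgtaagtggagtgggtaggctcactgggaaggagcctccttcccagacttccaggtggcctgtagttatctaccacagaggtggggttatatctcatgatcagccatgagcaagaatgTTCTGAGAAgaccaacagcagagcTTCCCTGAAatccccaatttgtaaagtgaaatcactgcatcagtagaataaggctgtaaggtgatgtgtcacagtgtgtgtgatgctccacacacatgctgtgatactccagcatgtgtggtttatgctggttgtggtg
Rdh16 (chr10:127636751-127637050, plus): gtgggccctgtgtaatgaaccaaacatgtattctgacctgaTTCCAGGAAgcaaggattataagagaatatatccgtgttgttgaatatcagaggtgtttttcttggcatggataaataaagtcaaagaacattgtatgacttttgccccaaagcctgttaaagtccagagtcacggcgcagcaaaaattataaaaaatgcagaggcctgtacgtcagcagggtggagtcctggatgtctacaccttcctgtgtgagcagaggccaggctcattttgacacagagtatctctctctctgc
The motif, searched on both strands, was in 11.9% of the windows of rising genes (5 of 42) and in 7.3% of 12682 windows over the whole table. An AP-1 motif, TGANTCA, was in 14.3% (6 of 42) against 5.3%, and the interferon response motif GAAANNGAA in 9.5% (4 of 42) against 7.7%. In the windows of falling genes the shares were 8.3% (1 of 12) for the STAT motif, 8.3% (1 of 12) for AP-1, and 16.7% (2 of 12) for the interferon response motif. These shares are descriptions of the letters in the windows.

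Replicates 4 and 5 of 5% RPS were the lowest of their diet in 31 of the 42 rising genes, an order found in 17.2% of all genes tested. For Mal, a proteolipid of apical membrane rafts, the 0% RPS libraries held 1144, 1017, 971, 843, and 1009 normalised counts and the 5% RPS libraries 4094, 5512, 4957, 1380, and 1574 (log2 fold change 1.81 ± 0.34, adjusted p = 0.000264, edgeR 0.0434). All 5 libraries at 5% RPS were above the 0% RPS range, with replicates 4 and 5 just above it. Gda showed the same order, and Art2a, Ffar4, and Tmem37 did not. Why the libraries of this diet differed was not tested.

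**Figure D2:**
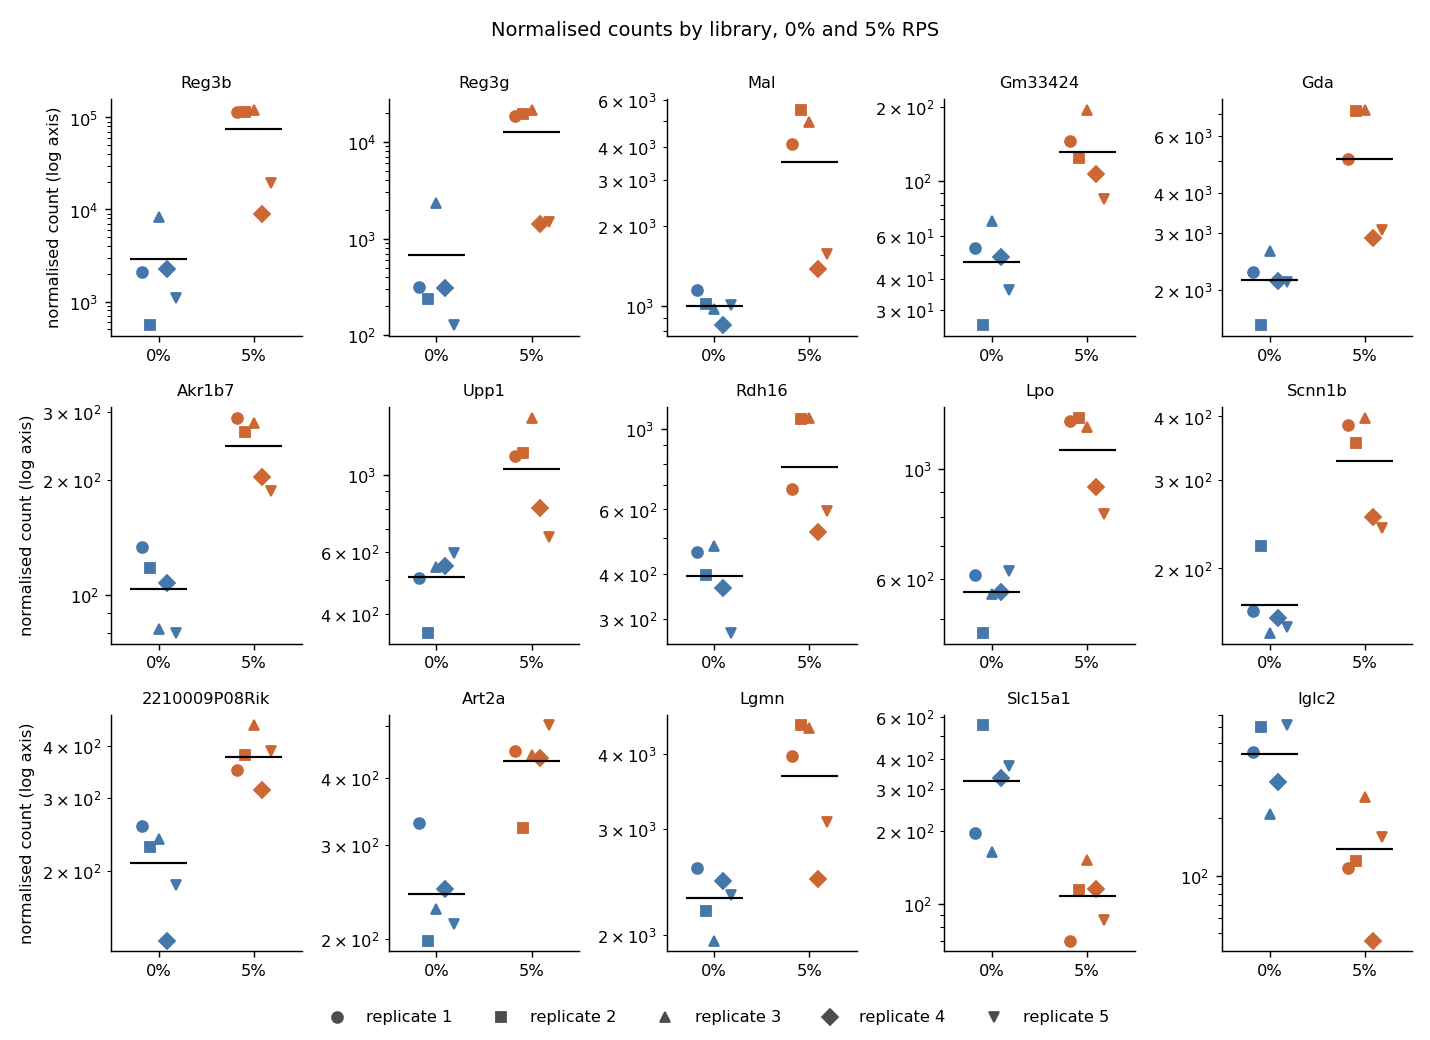
Normalised counts (log axis) in each library of 0% and 5% RPS for the 14 described genes called in all 10 fits and for Iglc2; marker shapes are replicates 1 to 5 and horizontal lines are group means. For Reg3b, Reg3g, Mal, Gda, Upp1, and Scnn1b, replicates 4 and 5 (diamond and inverted triangle) are the lowest of the 5% RPS libraries.

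Of the peroxide system 3 genes rose. Duox2 is the oxidase that releases hydrogen peroxide at the epithelial surface, Duoxa2 is the factor that matures it, and Lpo is a peroxidase that turns peroxide into antimicrobial products. Lpo held 612, 469, 561, 565, and 623 normalised counts at 0% RPS and 1245, 1267, 1212, 919, and 810 at 5% RPS, with no overlap (log2 fold change 0.95 ± 0.16, adjusted p = 1.27e-05, edgeR 0.0335). Duox2 rose by 1.25 and Duoxa2 by 1.87, each with 3 of 5 libraries above the 0% RPS range, and 0% RPS replicate 2 held the highest value of its diet for each (3950 and 288). Without that library the changes were 1.49 and 2.35. Duox2 was called in 6 and Duoxa2 in 4 of the 10 fits, with adjusted p values of up to 0.105 and 0.19, and neither passed with only the 10 libraries compared (adjusted p = 0.0512 and 0.139). Of the 12 genes measured on a list of the peroxide system 3 were called, all higher, against 0.334% of all genes tested. The lists here and below were chosen with earlier results of these data known, so such shares are not a test of a list. The median of the list was 0.23. Cat, catalase, which removes peroxide, had lower mean levels at 5% RPS (-0.50, adjusted p = 0.093) and did not pass, but was called lower without 0% RPS replicate 2 (-0.59, adjusted p = 0.0205) and without 5% RPS replicate 4 (-0.60, adjusted p = 0.0277). Without 0% RPS replicate 2 the list had 4 higher calls and 1 lower. Duoxa2 overlaps Duoxa1 on the opposite strand and shares 41.1% of its 50-base windows with it, so reads of the pair may be mixed.

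Some genes of surface colonocytes and their glycan coat rose. Beside Mal these were Clca4b (2.67), of a family that regulates chloride channels, Ceacam12 (1.22), an adhesion molecule gene, Plet1 (0.80), a membrane protein, Muc13 (0.60), a transmembrane mucin, and Fut2 (0.81), the fucosyltransferase that adds terminal fucose to mucosal glycans. Of 26 measured genes on the list of surface colonocyte genes 4 rose and 0 fell, against 0.334% and 0.103% of all genes tested. On that list 23 had a fold change above 0, against 47.4% of all genes tested, and the median was 0.20. Muc13 was abundant and even: its lowest 5% RPS library (48045 normalised counts) was above its highest 0% RPS library (46309), with an edgeR adjusted p of 0.0394. Without 0% RPS replicate 2 Muc13 was under the fold threshold (0.55, adjusted p = 0.000517) and Fut2 did not pass (0.80, adjusted p = 0.0812), and Fut2 was called in 4 of the 10 fits. Clca4b was uneven, with 1571 normalised counts in 5% RPS replicate 2 against 96.2 to 523 in the other 4. Of its windows 24.8% are shared, mainly with Clca4a. Clca4b was called in 6 of the 10 fits and did not pass with only the 10 libraries compared (adjusted p = 0.0518). On a list of transmembrane mucins and glycosyltransferases 2 of 31 were called and 5 passed the adjusted p in all, all higher, among them the galactosyltransferase B4galt1 (0.39, adjusted p = 0.011) and B3gnt3 (0.29, adjusted p = 0.043). Of all genes tested 0.334% were called higher and 1.33% passed the adjusted p as higher. Galnt15, an enzyme that starts O-linked glycans, fell by 0.63 on the log2 scale (225 to 584 normalised counts at 0% RPS and 238 to 279 at 5% RPS), and was called in 2 of the 10 fits. Of 18 goblet cell mucus genes 0 were called. Their median was 0.33, and 15 were above 0, against 47.4% of all genes tested. Ccl6, a chemokine, was past the adjusted p (0.48, adjusted p = 0.038). Galnt12 (0.28), Klk1 (0.37), and Spdef (0.40), the goblet cell transcription factor, had adjusted p values of 0.10, 0.11, and 0.15. Without 0% RPS replicate 2 the median of the goblet list was 0.45 and 2 of its genes were called.

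Among immune genes, Trim15 (1.39) and Trim40 (0.81) rose, and Trim31 was past the adjusted p under the fold threshold (0.51, adjusted p = 0.0093). These encode tripartite-motif proteins of the gut epithelium, and the remaining measured gene of that list of 4, Trim38, had a change of -0.23. Trim15 was called in 6 of the 10 fits and did not pass with only the 10 libraries compared (adjusted p = 0.0764). Trim40 was called in 4 of the 10 fits and did not pass without 0% RPS replicate 2 (0.69, adjusted p = 0.0718), which left 1 call on the list, nor with only the 10 libraries compared (adjusted p = 0.228). Art2a, a gene of the ADP-ribosyltransferase family, held 329, 199, 227, 248, and 214 normalised counts at 0% RPS. At 5% RPS it held 449, 323, 442, 436, and 501 (log2 fold change 0.82 ± 0.15, adjusted p = 9.92e-05, edgeR 0.0394). Whether its RNA yields a working enzyme in these mice was not tested. Only replicate 2 of 5% RPS lay within the 0% RPS range for Art2a, which shares 11.1% of its windows, with Art2b. Zbp1, a sensor of Z-form nucleic acids that can trigger cell death, rose by 1.08, Bcl3, a nuclear regulator of NF-kB, by 0.75, Ly6a, a surface protein induced by interferon, by 1.18, and Lrg1, a secreted glycoprotein of the acute phase, by 0.96. For Lrg1, 63.1% of the windows are shared with other genes, and for Ly6a 19.1%. Zbp1 and Ly6a were called in 5 of the 10 fits, Bcl3 in 6, and Lrg1 in 4. With only the 10 libraries compared Bcl3, Ly6a, and Lrg1 did not pass (adjusted p = 0.0647, 0.0642, and 0.0651). Bcl3 was the only call among 21 NF-kB feedback and chemokine genes, whose median was -0.05. Of 47 interferon-stimulated genes only Zbp1 was called, Irf8 was also past the adjusted p (0.37, adjusted p = 0.026), and the median was 0.07. Of all genes tested 0.334% were called higher and 1.33% passed the adjusted p as higher. Parp9 (0.32, adjusted p = 0.059) and Ido1 (0.76, adjusted p = 0.10) did not pass.

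Smaller differences were found in antigen processing. Of 25 measured genes of MHC class I presentation 0 were called, but 4 were past the adjusted p as higher (1.33% of all genes tested) and 1 as lower (0.573% of all). Psmb10 and Psmb8, catalytic subunits of the immunoproteasome, differed by 0.38 (adjusted p = 0.0058) and 0.46 (adjusted p = 0.037), and Psme2, a subunit of its activator, by 0.32 (adjusted p = 0.019). Psmb10 held 2442 to 2825 normalised counts at 0% RPS and 2889 to 3949 at 5% RPS, so its groups did not overlap. Cd1d1, which presents lipids, was lower (-0.56, adjusted p = 0.039). In the list of necroptosis and inflammasome genes 23 of 24 were above 0, against 47.4% of all genes tested, with a median of 0.16. Of that list only Zbp1 was called, against 0.334% of all genes tested called higher. Bak1, an effector of mitochondrial cell death, was past the adjusted p (0.38, adjusted p = 0.014). Il18 (0.74, adjusted p = 0.090) and Ripk3 (0.45, adjusted p = 0.098) were not. Of 18 genes of the interleukin 22 and STAT3 axis, Bcl3 and Fut2 were called, Stat3 itself changed by 0.36 (adjusted p = 0.059), and the median was 0.13. On the list of antimicrobial proteins 5 of 19 were called higher, against 0.334% of all genes tested. This list, too, was chosen with earlier results known, so the share is not a test of it. Pglyrp1, a bacterial peptidoglycan binder, was past the adjusted p (0.43, adjusted p = 0.0135), and the median of the list was 0.34.

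Enzymes of nucleotide, retinoid, and aldehyde metabolism rose, while few or no other genes of their lists passed the test. Of all genes tested 0.334% were called higher, and 1.46% had every 5% RPS library above the 0% RPS range. Gda, guanine deaminase, held 2276, 1557, 2634, 2130, and 2122 normalised counts at 0% RPS and 5085, 7121, 7194, 2889, and 3061 at 5% RPS (log2 fold change 1.24 ± 0.24, adjusted p = 0.000434). Upp1, uridine phosphorylase, held 506, 352, 544, 547, and 599 against 1133, 1155, 1464, 804, and 665 (1.03 ± 0.21, adjusted p = 0.000756). All 5% RPS libraries were above the 0% RPS range for each gene, while the median over the 20 measured genes of purine and pyrimidine breakdown was 0.00 and these were its 2 called genes. Rdh16, of the retinol dehydrogenase family, held 459, 397, 477, 364, and 275 at 0% RPS and 684, 1065, 1073, 519, and 594 at 5% RPS (1.0 ± 0.21, adjusted p = 0.00161), again without overlap. Its neighbour Rdh9 rose by 1.79 from 9.78 ± 5.29 to 34.5 ± 13.4 normalised counts, but shares 67.5% of its windows with genes of the same cluster, and Rdh16 shares 13.5%. These were the 2 called genes of 22 on the retinoid list, whose median was -0.04. Akr1b7, an aldo-keto reductase that reduces aldehydes, held 134, 118, 81.8, 108, and 79.8 normalised counts against 290, 266, 280, 204, and 187 (1.24 ± 0.21, adjusted p = 1.27e-05, edgeR 0.0335), a separation with no overlap. Of the 49 genes of xenobiotic metabolism it was the only call, and the median was -0.05. The list had 1 higher and 5 lower calls and a median of -0.12 without 0% RPS replicate 2. Sptssb, a small subunit of the enzyme that starts sphingolipid synthesis, rose by 0.60, and by 0.55, under the fold threshold, without 0% RPS replicate 2.

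Genes of proteases, ion transport, and receptors were also among the rising genes, though their lists held few calls. Of 23 measured proteases and protease inhibitors 2 were called, Prss27 and Wfdc18, against 0.334% of all genes tested called higher. The median of that list was 0.10. Of 10 genes each, Ffar4 was the only call in butyrate transport and sensing (median -0.02) and Hbegf in EGF family ligands and receptors (median 0.03). Lgmn, a lysosomal protease, held 2581, 2190, 1956, 2455, and 2328 normalised counts at 0% RPS and 3958, 4460, 4416, 2474, and 3084 at 5% RPS (log2 fold change 0.68 ± 0.15, adjusted p = 0.00399), where replicate 4 was within the 0% RPS range. Lgmn was not on the list of proteases and was the only call among 11 measured genes of MHC class II presentation (median -0.01). Prss27, a serine protease, rose by 1.69 and Wfdc18, of a family of protease inhibitors, by 1.5, and Serpinb1a, an inhibitor of serine proteases, was higher by 0.39 (adjusted p = 0.0021). Scnn1b, a subunit of the epithelial sodium channel, held 165, 222, 149, 159, and 153 at 0% RPS and 386, 355, 398, 253, and 240 at 5% RPS (0.94 ± 0.20, adjusted p = 0.00187), with no overlap. It was the only call among 23 genes of salt and water absorption. Aqp8, a colonic water channel, averaged 1653 normalised counts at 0% RPS and 289 at 5% RPS, but 0% RPS replicate 2 alone held 6463 against 98 to 917 in the other 4. Its change was -2.52 with that library (adjusted p = 0.15) and -0.64 without it. Ffar4, a receptor for long-chain fatty acids, rose by 0.95, Hbegf, a ligand of the epidermal growth factor receptor, by 1.04, and the membrane protein genes Tmem37 and Ttyh1 by 0.82 and 0.73. Tmem253 (0.60), a membrane protein gene, and Myl7 (0.96), a myosin light chain, complete the coding genes that rose. Tmem253 did not pass without 0% RPS replicate 2 (0.50, adjusted p = 0.0697).

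Genes not annotated as protein-coding made up 5 of the 42. Gm33424, a long noncoding RNA on chromosome 13, held 53.8, 26.0, 69.1, 49.4, and 36.3 normalised counts at 0% RPS and 146, 124, 195, 108, and 85 at 5% RPS (log2 fold change 1.48 ± 0.25, adjusted p = 1.95e-05, edgeR 0.0394). The unclassified transcript 2210009P08Rik held 257, 228, 238, 135, and 185 against 351, 382, 450, 314, and 389 (0.86 ± 0.16, adjusted p = 0.000224, edgeR 0.0394). Neither overlapped between diets. The transcript 2210009P08Rik (chr16:97267684-97268148, minus) lies past the 3' end of Fam3b (chr16:97271940-97316016, minus), which was also higher (0.51). Whether the 2210009P08Rik reads come from a separate transcript was not tested. Plet1os (0.94) runs antisense to Plet1, which rose with it, and without the use of strand in counting the reads of the pair cannot be told apart. Mir6236 (2.11) and Rpph1 (3.12), the RNA of ribonuclease P, rested on 5% RPS replicate 4, which held 2406 and 64.4 normalised counts against at most 515 and 8.72 in the others. Without it their changes were 0.89 and 1.41, and Mir6236 had an adjusted p of 0.30. Mir6236 did not pass without 0% RPS replicate 2 either (2.02, adjusted p = 0.0606), and Rpph1 (3.14) was then given no adjusted p. Rpph1 shares 84.4% of its windows, mainly with Parp2 and Ccnb1ip1. The counts at Mir6236 come from an mRNA library and are not those of a mature microRNA.

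The genes that fell form no single pathway list, and their median change was smaller in size than that of the rising genes (-0.74 against 1.02). Slc15a1, the intestinal transporter of small peptides, held 197, 553, 165, 332, and 374 normalised counts at 0% RPS and 70.1, 114, 152, 115, and 85 at 5% RPS (log2 fold change -1.60 ± 0.33, adjusted p = 0.000836, edgeR 0.0645). No 5% RPS library reached the 0% RPS range, and it was the only call among 17 transporters of peptides and amino acids, whose median was -0.04. Of all genes tested 0.103% were called lower, and 0.955% had every 5% RPS library below the 0% RPS range. Iglc2, an immunoglobulin light chain gene, held 445, 605, 210, 312, and 616 against 110, 119, 259, 45.6, and 161 (-1.66 ± 0.48, adjusted p = 0.0382). For Iglc2 replicate 3 of 5% RPS (259) was above replicate 3 of 0% RPS (210), so the diets overlapped. It was called in 3 of the 10 fits, and without 0% RPS replicate 2 its change was -1.51 (adjusted p = 0.061). Cckar (-0.97), the receptor of cholecystokinin, and Tacr2 (-0.74), a tachykinin receptor, were the 2 calls among 20 enteroendocrine hormones and gut peptide receptors, and each had all 5 libraries below the 0% RPS range. For each the highest value of all was that of 0% RPS replicate 2 (526 and 509 normalised counts). Without that library Cckar stood at -0.69 (adjusted p = 0.042) and Tacr2 at -0.49 (adjusted p = 0.082). Insl5, a hormone of colonic endocrine cells, held 458 normalised counts in that library and 34.2 to 77.9 in the other 4, and its change was -1.47 with it (adjusted p = 0.071) and -0.23 without it.

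Lipid mediators and connective tissue genes were among the other decreases. Enpp2, the enzyme that makes lysophosphatidic acid, held 414 to 603 normalised counts at 0% RPS and 297 to 365 at 5% RPS (-0.64, adjusted p = 0.00205) and was called in 9 of the 10 fits. Alox5ap, needed for leukotriene synthesis, fell by 0.70 on the log2 scale, and Tmem86a, which cleaves lysoplasmalogens, by 0.92. Alox5, the lipoxygenase that Alox5ap serves, had a change of -0.36 (adjusted p = 0.11), and 12 of the 15 measured leukotriene and prostaglandin genes were below 0 (median -0.18). Without 0% RPS replicate 2 that list had a median of -0.08 with 0 lower calls and 1 higher, Pla2g5, a secreted phospholipase (1.71, adjusted p = 0.0131, and 1.17, adjusted p = 0.183, with that library). Gli1 (-0.77), the target and effector of Hedgehog signals in stromal cells, Sema3g (-0.65), a secreted semaphorin, Htra3 (-0.60), a secreted protease, and Ttll6 (-0.63), a tubulin glutamylase, complete the decreases described. In 7 of the 13 falling genes 0% RPS replicate 2 was the highest library of its diet, compared with 28.7% of all genes tested, and 7 of the 13 were called without it, against 35 of the 42 rising genes. Without it Gli1 changed by -0.71 (adjusted p = 0.060) and Sema3g by -0.46 (adjusted p = 0.061). Sema3g, Alox5ap (-0.49), and Htra3 (-0.50) were then under the fold threshold. Ttll6 and Enpp2 had no 5% RPS library within the 0% RPS range, while for Tmem86a and Galnt15 the lowest value of all was in 0% RPS replicate 2.

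Markers of several other cell types were lower as well, and those of others were not. All 10 smooth muscle, all 10 fibroblast, all 8 endothelial, and all 8 macrophage and dendritic cell markers measured had a fold change below 0, with medians of -0.27, -0.36, -0.23, and -0.28, and 0 of them were called. Without 0% RPS replicate 2 the medians were -0.12, -0.10, -0.13, and -0.07. Summed fibroblast markers were 63768 normalised counts in that library, 21950 to 34967 in the other 0% RPS libraries, and 23333 to 30843 at 5% RPS, and summed plasma cell markers were 103985, 24295 to 27794, and 20162 to 39245. Of the 10 plasma cell markers only Iglc2 was called, and the median turned from -0.52 to 0.13 without that library. Adipocyte markers had the lowest median (-1.65, all 7 below 0 and 0 called, and -1.21 without that library). Adipoq held 396, 568, 16.4, 304, and 105 normalised counts at 0% RPS and 66.3, 163, 9.95, 98.6, and 105 at 5% RPS, so the diets overlapped. Hoxa9, a gene of position along the gut, held 2422 normalised counts in 0% RPS replicate 2 and 195 to 524 in the other 9, and Hoxa10, Hoxa7, and Hoxa11 were also highest in that library. Epithelial markers were at 384968 to 469190 summed normalised counts at 0% RPS and 447427 to 478485 at 5% RPS, with 9 of 10 above 0. Tuft cell markers were all below 0 (6 of 6, median -0.26), with Alox5ap called and the summed level at 2927 to 4038 and 2905 to 3187. The 2 B cell markers and the 2 T cell markers measured were above 0 (medians 0.66 and 0.22). Of the enteric glia markers 3 were above and 3 below 0 (median 0.03). Of 11 enteric neuron markers 10 were below 0 (median -0.11), as were the 2 mast cell and eosinophil markers (median -0.14). In these lists 0 markers were called. Of all genes tested 47.4% had a fold change above 0. None of the 7 neutrophil and 8 exocrine pancreas markers was among the genes tested. The part of these cell types in the decreases was not tested.

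**Figure D3:**
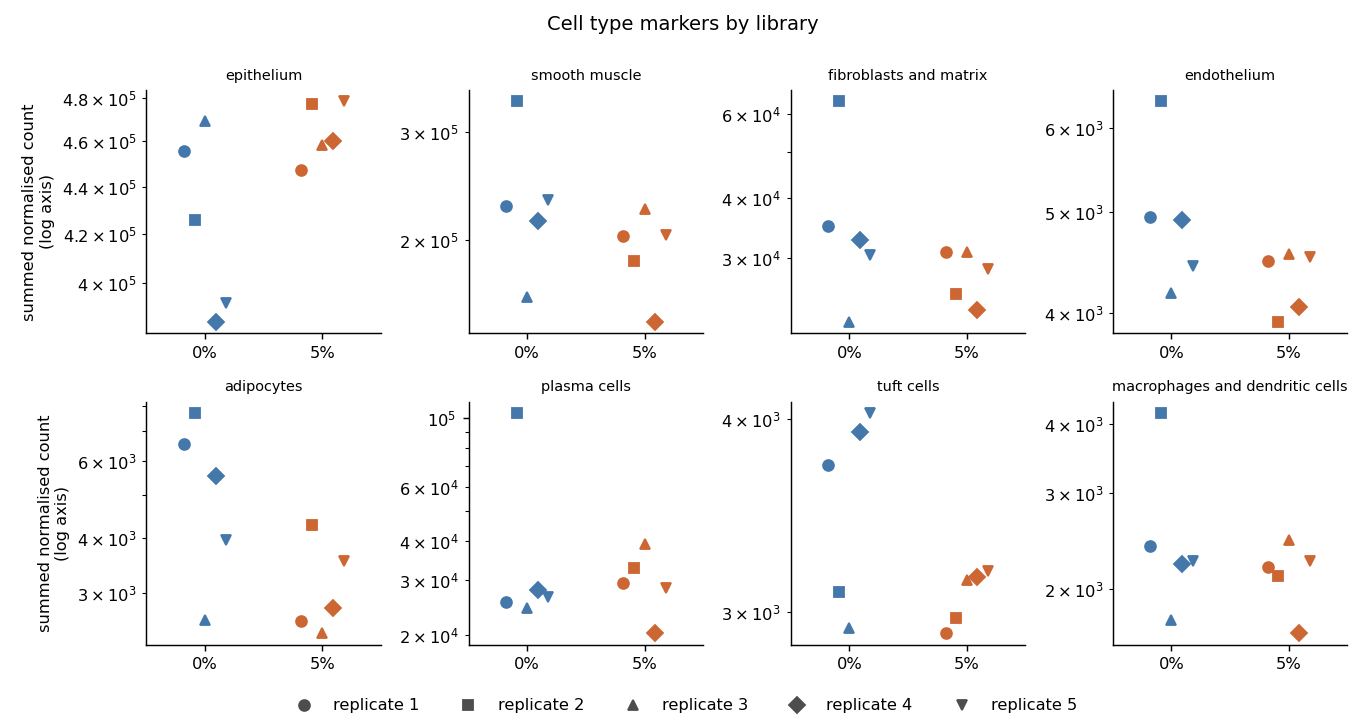
Summed normalised counts (log axis) of the measured markers of 8 cell types in each library of 0% and 5% RPS; marker shapes are replicates 1 to 5. Replicate 2 of 0% RPS (square) holds the highest sum for smooth muscle, fibroblasts, endothelium, adipocytes, plasma cells, and macrophages.

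Beyond the called genes, 125 were higher and 59 lower past the adjusted p with a fold under 1.5, with median log2 fold changes of 0.32 and -0.32. The 10 with the smallest adjusted p in each direction did not overlap between diets in any library. Over all genes tested, 1.46% had every 5% RPS library above the 0% RPS range and 0.955% every one below it. The 10 in each direction were chosen by p in the same comparison, which favours such a separation. Among the higher ones were AW112010 (0.49), an interferon-induced transcript, Selenos (0.29), a selenoprotein of endoplasmic reticulum quality control, Fam3b (0.51), a secreted cytokine-like protein, Pcyt1a (0.22), the rate-setting enzyme of phosphatidylcholine synthesis, Id3 (0.55), an inhibitor of differentiation factors, and Prkca (0.22), a protein kinase C. Selenos held 1781 to 2188 normalised counts at 0% RPS and 2299 to 2482 at 5% RPS (adjusted p = 0.000492, edgeR 0.0434). Lrrc42 (0.46), Serpinb1a (0.39), Rmdn3 (0.25), and Ccdc85c (0.32) were the others. With edgeR 11 genes passed the adjusted p, and AW112010, Lrrc42, Selenos, and Fam3b were the 4 of them under the fold.

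The 10 lower ones had varied roles. Sesn1 (-0.46), a stress-induced inhibitor of mTORC1, held 1015 to 1376 normalised counts at 0% RPS and 732 to 911 at 5% RPS, and Klhl24 (-0.56) and Calcoco1 (-0.50), an autophagy receptor, were separated in the same way. Pck2 (-0.25) makes phosphoenolpyruvate in mitochondria, Oplah (-0.42) is an enzyme of the glutathione cycle, and Mocs1 (-0.28) acts in molybdenum cofactor synthesis. Pdgfrb (-0.36), the receptor of mural cells and fibroblasts, and Plpp3 (-0.40), which breaks down lysophosphatidic acid, belonged to this group, as did Gtf2i (-0.23) and Tmt1a (-0.46). Pdgfrb was as low without 0% RPS replicate 2 (-0.37, adjusted p = 0.0025).

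Pathway lists with no called gene differed in their medians. Cholesterol synthesis had 24 of 26 genes above 0 and a median of 0.30, but 0 were past the adjusted p. Hmgcs1, an early enzyme of the pathway, held 8129, 6573, 7813, 2313, and 2596 normalised counts at 5% RPS and 2263 to 4028 at 0% RPS (log2 fold change 0.63, adjusted p = 0.355). For Hmgcs1, Mvd, and Sqle, replicates 1 to 3 of 5% RPS were above the 0% RPS range and replicates 4 and 5 were within or below it. The unfolded protein response had 17 of 20 above 0 (median 0.22), with Dnajb11, a chaperone partner, past the adjusted p (0.38, adjusted p = 0.021) and Manf (0.48), Xbp1 (0.23), and Creld2 (0.44) not past it, and without 0% RPS replicate 2 the median was 0.31 and 2 genes were called. Cell cycle genes had 25 of 32 above 0 (median 0.15). Circadian clock genes had 15 of 18 below 0 (median -0.21), among them Per1 (-0.46, adjusted p = 0.234), and 0 passed the adjusted p. Of 33 genes of fatty acid oxidation and ketogenesis 0 passed (median -0.06), and of 19 tight junction genes F11r alone was past the adjusted p (0.22, adjusted p = 0.039). Over all genes tested, 47.4% were above 0.

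**Figure D4:**
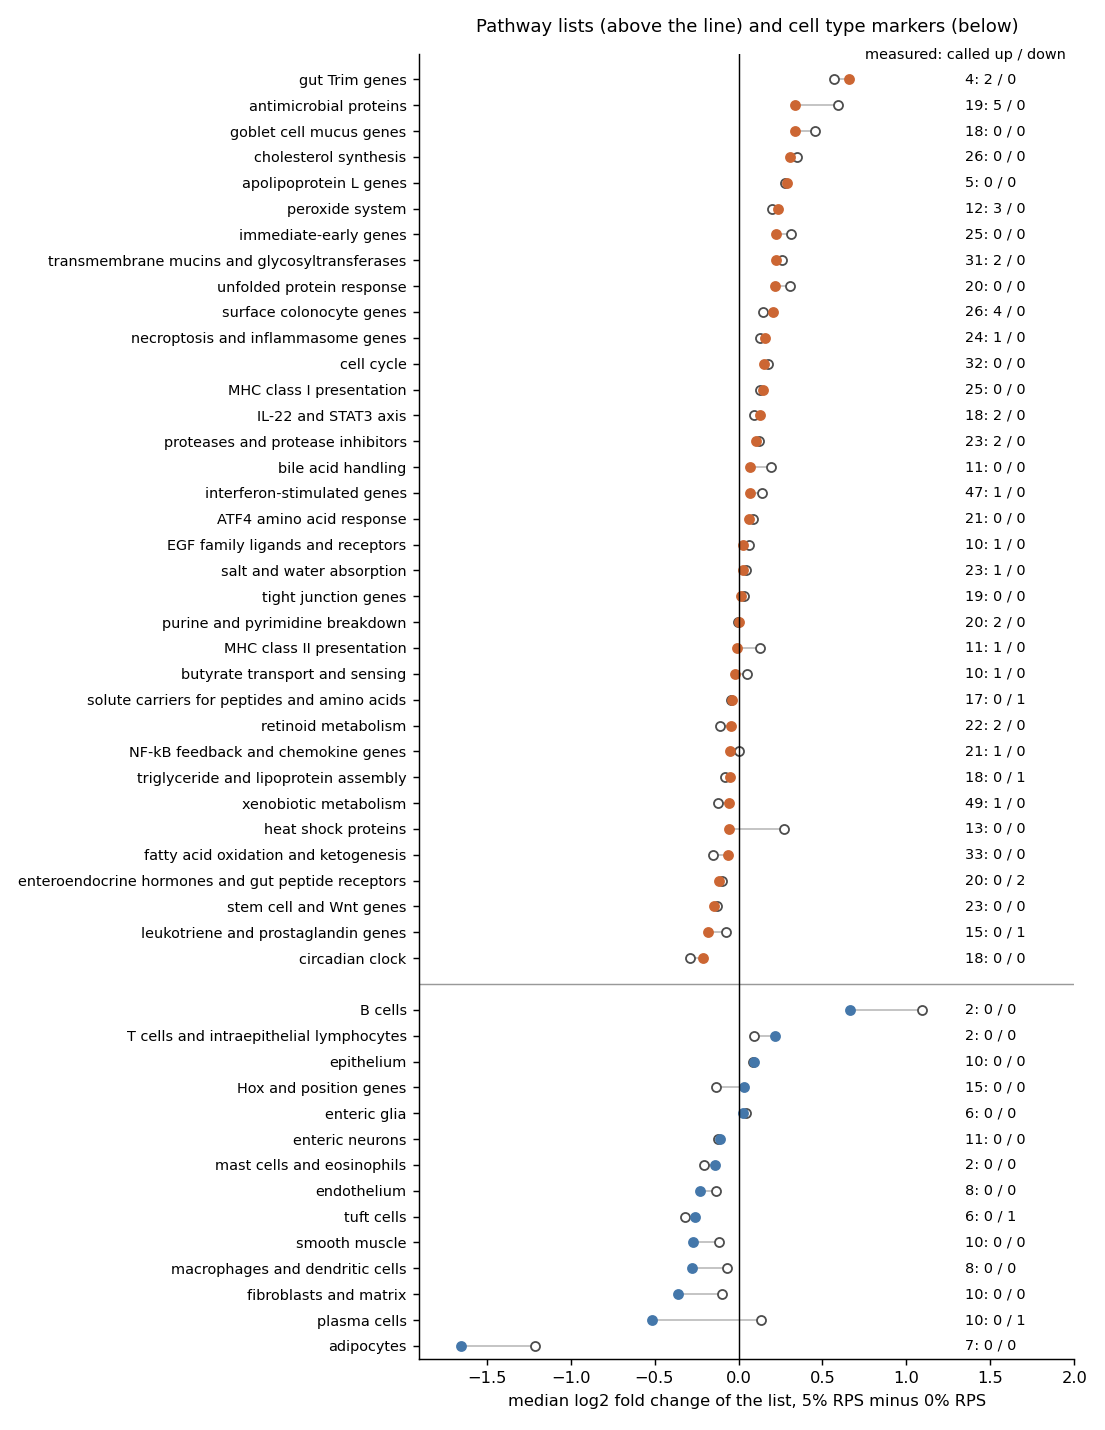
Median log2 fold change of each list at 5% RPS against 0% RPS (x axis, filled points) and the same without 0% RPS replicate 2 (open points), for pathway lists above the line and cell type markers below it; the numbers at right give the genes measured and those called higher and lower. Gut Trim genes (0.66), antimicrobial proteins (0.34), goblet cell mucus genes (0.33), and cholesterol synthesis (0.30) have the highest medians among the pathway lists and adipocytes (-1.65) the lowest of all lists.

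The called genes were also read at the other starch levels. Comparisons with 0% RPS share its 5 libraries, so only the values side by side are given. Reg3b was changed by 3.66, 4.71, and 4.06 on the log2 scale at 2, 5, and 10% RPS, Mal by 1.05, 1.81, and 1.28, Clca4b by 1.41, 2.67, and 0.76, and Trim15 by 0.56, 1.39, and 0.70. Ceacam12 stood at 0.91, 1.22, and 2.02, Lypd8l at 0.52, 0.83, and 1.52, and Lpo at 0.53, 0.95, and 1.21. Akr1b7 was level, at 1.26, 1.24, and 1.24. Slc15a1 was at -1.16, -1.60, and -1.69.

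Whether 5% RPS differed from its neighbours was tested directly. Between 5% and 2% RPS 0 genes were called with DESeq2 or edgeR (359 and 320 at an unadjusted p under 0.05). Between 10% and 5% RPS DESeq2 called 1 gene, Irf7, the interferon regulatory factor that amplifies type I interferon, which was the higher at 10% RPS by a log2 value of 0.91 (adjusted p = 0.0337). There edgeR called 0 (516 and 460 at an unadjusted p under 0.05). Irf7 held 1985 to 2512 normalised counts at 0% RPS and 2628 to 3084 at 5% RPS, without overlap, yet its change at 5% RPS did not pass (0.32, adjusted p = 0.42). With only the 10 libraries compared that change was past the adjusted p (0.32, adjusted p = 0.0197) and under the fold. Of the 55 genes 0 passed in these comparisons, with smallest adjusted p values of 1 against 2% RPS and 0.72 against 10% RPS, which does not show that the levels act alike.

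**Figure D5:**
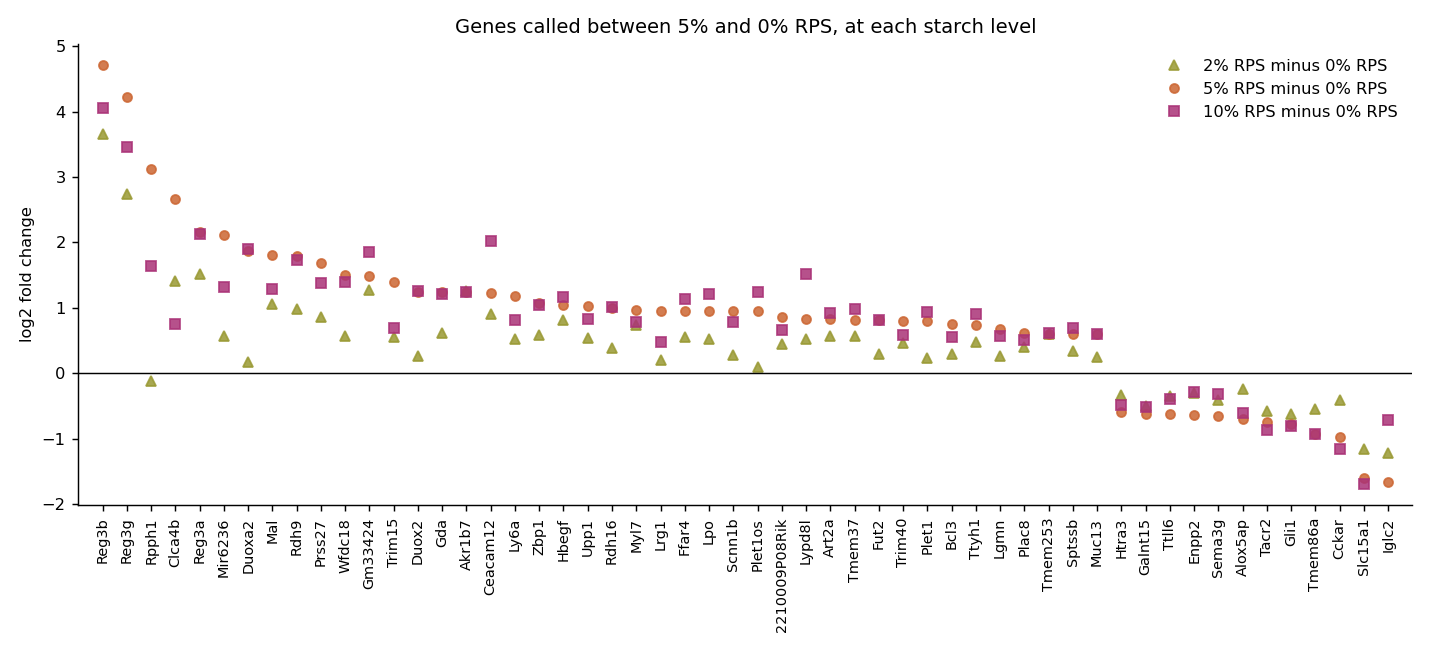
Log2 fold change of the called genes described here (x axis, ordered by their value at 5% RPS) at 2% (triangles), 5% (circles), and 10% RPS (squares), each against the same 5 libraries of 0% RPS. Clca4b stands at 2.67 at 5% RPS and 0.76 at 10% RPS, while Ceacam12 stands at 1.22 and 2.02.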

How the data were processed

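RNA from the PC was sequenced in 20 libraries, 5 per diet, as single-end reads from stranded mRNA libraries. The deposited values are whole-number read counts per Ensembl gene, which the authors made by removing bases of low quality, aligning to GRCm39, and counting in CLC Genomics Workbench. Whether strand was used, how reads with several matches were counted, and why the table holds 12701 genes are not given in the sources used here, so counts of overlapping or near-identical genes are uncertain. Libraries were assigned to diets from their labels, and replicate numbers only name them.

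The study used DESeq2 with the same thresholds, and its model is not given in the sources used here. Here the counts of all 20 libraries were fitted with DESeq2 (version 1.42.0, R version 4.3.3) with diet as the only term, and 5% RPS was contrasted with 0% RPS (Wald test, Benjamini-Hochberg adjusted p of 0.05 or less, unshrunken fold change of 1.5 or more). edgeR (version 4.0.16, quasi-likelihood test, 12366 genes kept) was the alternative test. Other alternatives were TMM factors, a filter of at least 10 counts in at least 5 libraries, independent or Cook filtering off, no fold threshold or a fold of 2, shrunken fold changes, only the 10 libraries compared, 1 surrogate variable (sva version 3.50.0), a smooth muscle score, omission of 3 libraries of the other diets, and omission of each of the 10 libraries. The scripts were tested on simulated data. The counts of 20 pairs of libraries of a diet all differed by more than sampling noise (lowest chi-square per degree of freedom 13.6).

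The comparison, gene lists, and marker lists were chosen with earlier results of these data known. Every called gene was named, except 1 that fell, which is not reported here. Values of every library are given for genes called in all 10 fits that left out a library and for the largest changes, and for each list up to 4 genes with the smallest p were eligible to be named. Annotation was GENCODE M39, in which 12682 identifiers were found. Shared windows are the share of 50-base windows of a gene's transcripts found in another gene's transcripts on either strand. Counting intervals and the floor of 3 counts cover counting error only.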

Additional observations from a re-analysis of the deposited data

Results flagged for a closer look

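Of 278 groups of 5 libraries tested with Dixon's test, over 139 genes, 29 held 1 library whose distance to the nearest other exceeded 0.71 of the range of the group, and chance flags about 1 in 20 such groups. The values are normalised counts, each followed by the range of the other 4 libraries of that diet. For 0% RPS replicate 1 the highest values that stood apart were Ttyh1 at 632 (others 371 to 429) and Psme2 at 1412 (others 1141 to 1208). Hmgcs1 was lowest in 0% RPS replicate 1, at 2263 (others 3520 to 4028). For 0% RPS replicate 2 the highest values that stood apart were Scnn1b at 222 (others 149 to 165), Tacr2 at 509 (others 231 to 290), Ddit4 at 1641 (others at most 1010), and Aqp8 at 6463 (others 98 to 917). Further highest values of that library were Slc26a3 at 12364 (others 3595 to 5957), Insl5 at 458 (others 34.2 to 77.9), Pla2g5 at 195 (others 50.8 to 66.4), and Hoxa9 at 2422 (others 257 to 524). Further highest values of that library were Hoxa10 at 1886 (others 368 to 576), Hoxa7 at 1619 (others 380 to 620), and Hoxa11 at 472 (others 137 to 226). Reg3a was lowest in 0% RPS replicate 2, at 1.04 (others 17.6 to 22.8). For 0% RPS replicate 3 the highest values that stood apart were Reg3b at 8324 (others 553 to 2261), Reg3g at 2362 (others 128 to 316), and Fut2 at 6166 (others 3977 to 4349). Psmb8 was lowest in 0% RPS replicate 3, at 353 (others 500 to 558). For 0% RPS replicate 5 the highest value that stood apart was Inmt at 189 (others 68.7 to 100). For 5% RPS replicate 2 the highest values that stood apart were Clca4b at 1571 (others 96.2 to 523), Aqp8 at 664 (others 136 to 258), Slc26a3 at 5887 (others 3961 to 4410), and Slc9a3 at 21245 (others 9499 to 11731). Id3 was lowest in 5% RPS replicate 2, at 2975 (others 3686 to 3872). For 5% RPS replicate 4 the highest values that stood apart were Rpph1 at 64.4 (others 2.98 to 8.72) and Mir6236 at 2406 (others 191 to 515). For 5% RPS replicate 5 the highest values that stood apart were Trim38 at 76.6 (others 51.4 to 58.7) and Cry2 at 1375 (others 919 to 1017).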

How the results depend on the processing

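No described gene changed sign under any alternative run. Of the 55 calls, 7 were made by edgeR (7 higher, 0 lower) and 2 with shrunken fold changes (2 higher, 0 lower). Without the fold threshold there were 239 calls (167 higher, 72 lower), and with a fold of 2 there were 24 (21 higher, 3 lower), as the threshold alone sets. With 1 surrogate variable 82 genes were called, 42 of the 55 among them, and the falling genes were 23 in place of 13, and the cause was not tested. Leaving out 1 library at a time gave 24 to 104 calls (18 to 73 higher, 3 to 42 lower), with 22 to 51 of the 55 among them. Between 10% and 5% RPS edgeR called 0 genes. The remaining alternatives (TMM factors, the count filter, independent or Cook filtering off, only the libraries compared, the smooth muscle score, and omission of 3 libraries of other diets) gave 48 to 57 calls. With only the libraries compared 40 of the 55 were called, and with the smooth muscle score 37. No paired analysis was possible because no label carries a replicate number that 0% and 5% RPS have in common.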

Other observations

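Lists that belong to no comparison above held few changes. Of 25 immediate-early genes 0 passed the adjusted p, with 21 above 0 and a median log2 fold change of 0.22, and 1 was called without 0% RPS replicate 2. Of 21 genes of the amino acid response, Atf4, its transcription factor, was past the adjusted p (0.34, adjusted p = 0.039) with no 5% RPS library below 5142 normalised counts and 0% RPS libraries at 4028 to 5209, while Asns (0.41) and Mthfd2 (0.47) had adjusted p values of 0.21 and 0.25. Bile acid handling (11 genes, median 0.07) and apolipoprotein L genes (5, median 0.29) had 0 genes past it. Of 23 stem cell and Wnt genes 18 were below 0 (median -0.15), with 1 higher and 1 lower past the adjusted p. Heat shock proteins turned from a median of -0.06 to 0.27 without 0% RPS replicate 2, and 0 of the 13 passed.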
